A study of Mus musculus with 6 samples.

Results

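The oncofetal RNA-binding and chromatin genes are a set of 9 genes, Lin28b, Hmga1, Hmga2, Igf2bp1, Igf2bp2, Igf2bp3, Sall4, Trim71 and Arid3a, picked by gene symbol out of 30927 named genes on the array. They are called oncofetal because most are active in embryonic tissue, fall silent around birth and can return in tumours, liver cancer among them. All 9 symbols were found, on 10 rows of the array, since Hmga1 has 2. RNA came from BMEL cells, an immortalized hepatoblast culture started from the liver of wild-type CD1 mice at E12.5 (days of gestation). Hepatoblasts are the fetal liver cells from which hepatocytes and bile duct cells arise. In 1 group of 3 samples the cells received 500 ng of a mimic of mmu-miR-337-3p, in the other group of 3 they received 500 ng of a negative control mimic, and RNA was taken after 48 h. Every sample was transfected with Lipofectamine 2000 on collagen, so the groups differ by the mimic alone as far as the labels say, and a single cell line stands for the hepatoblast.

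Several of these genes belong to 1 regulatory circuit. LIN28B is an RNA-binding protein that blocks maturation of the let-7 family of microRNAs, and let-7 in turn represses Hmga2, Lin28b itself, the Igf2bp genes and Trim71. HMGA1 and HMGA2 are small architectural chromatin proteins that bind the minor groove of AT-rich DNA, IGF2BP1 to IGF2BP3 bind mRNAs and affect their stability, transport and translation, and TRIM71 is a ubiquitin ligase that also silences mRNAs. SALL4 is a zinc finger transcription factor of stem cells and fetal liver, and ARID3A is a DNA-binding transcription factor with an ARID domain.

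The microRNA that was raised and the let-7 microRNAs that repress several of these genes are shown here to compare their seeds, bases 2 to 8, which pair with target mRNAs. Sequences are from RefSeq (GRCm38.p6), written 5′ to 3′, with the seed in capitals.
mmu-miR-337-3p (chr12:109585850-109585871, plus strand): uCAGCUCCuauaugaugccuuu
mmu-let-7a-5p (from Mirlet7a-1, chr13:48538239-48538260, minus strand): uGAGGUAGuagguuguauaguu
mmu-let-7g-5p (chr9:106178846-106178867, plus strand): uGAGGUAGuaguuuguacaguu
mmu-miR-98-5p (chrX:151913229-151913250, plus strand): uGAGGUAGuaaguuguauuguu
The seed of miR-337-3p has the same base as the let-7 seed at 3 of 7 positions, so it is a different seed. The 11 let-7 family genes measured here that have a 5p sequence in the RefSeq table carry 9 distinct mature sequences and 1 seed. Target sites in the mRNAs of the 9 genes were not analysed here.

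Array medians over all named genes ran from 4.83 to 5.01 on the log2 scale, and the number of arrays limits the precision. No label states that the replicates came from separate cultures, so the p-values below rest on array-to-array spread that may be technical. As a reference for dim signal, 1386 olfactory and vomeronasal receptor genes, which liver cells are not known to use, had a median log2 signal of 3.15, and 95% of them lay below 4.83. Of 18 hepatoblast markers, 17 lay above that reference, with Krt8, Krt18, Krt19, Cdh1, Hnf4a and Epcam bright, while the defining fetal liver marker Dlk1, at 4.71 in control and 4.88 in mimic samples, lay at the reference. Endothelial markers lay below it in 8 of 8 cases, mesenchymal and stellate markers in 7 of 10 and blood cell markers in 6 of 9. The summed signal of the 9 blood cell markers, as log2, was 7.97 to 8.28 in control and 8.62 to 9.06 in mimic samples, and it moved with the lysosomal protein gene Cd68, which rose by 1.18 (SE 0.23, limma adjusted p = 0.0320). The leukocyte marker Ptprc (CD45) read 3.22 in control and 3.54 in mimic samples, and the myeloid adaptor Tyrobp 4.41 and 4.43, both below the dim reference. Csf1r, at 5.63 in control and 5.28 in mimic samples, and Kit, at 4.90 and 5.24, lay above that reference (limma adjusted p = 0.433 and 0.427). The part of these marker levels in the results below was not tested.

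Of the 9 oncofetal genes, 1 rose and 0 fell after miR-337-3p mimic at a Benjamini-Hochberg adjusted p under 0.05 in limma, against 3.57% of all genes called in either direction, 1.89% higher and 1.68% lower. The gene that rose was Hmga2. The 9 genes were chosen with earlier results of these data known, so the shares over all genes given beside them are no test of the set. By an unadjusted limma p under 0.05 there were 4 of 9, namely Hmga2, Hmga1, Trim71 and Arid3a, against 15.1% of all genes. Control and mimic arrays were fully separated for 5 of 9 genes, 4 with mimic above control and 1 below, against 19.6% of all genes, 11.2% with mimic above and 8.33% below. Of the 4, Lin28b lay under the dim reference in both groups (limma adjusted p = 0.845). The median log2 difference, mimic minus control, was 0.03 for the 9 genes and 0.02 for all genes, and 5 of the 9 lay above 0, against 53.9% of all genes. Arrays with the same replicate number deviated together, and with the replicate number as a block 3 of the 9 genes were called, Hmga2, Hmga1 and Arid3a, against 8.58% of all genes.

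**Figure D1:**
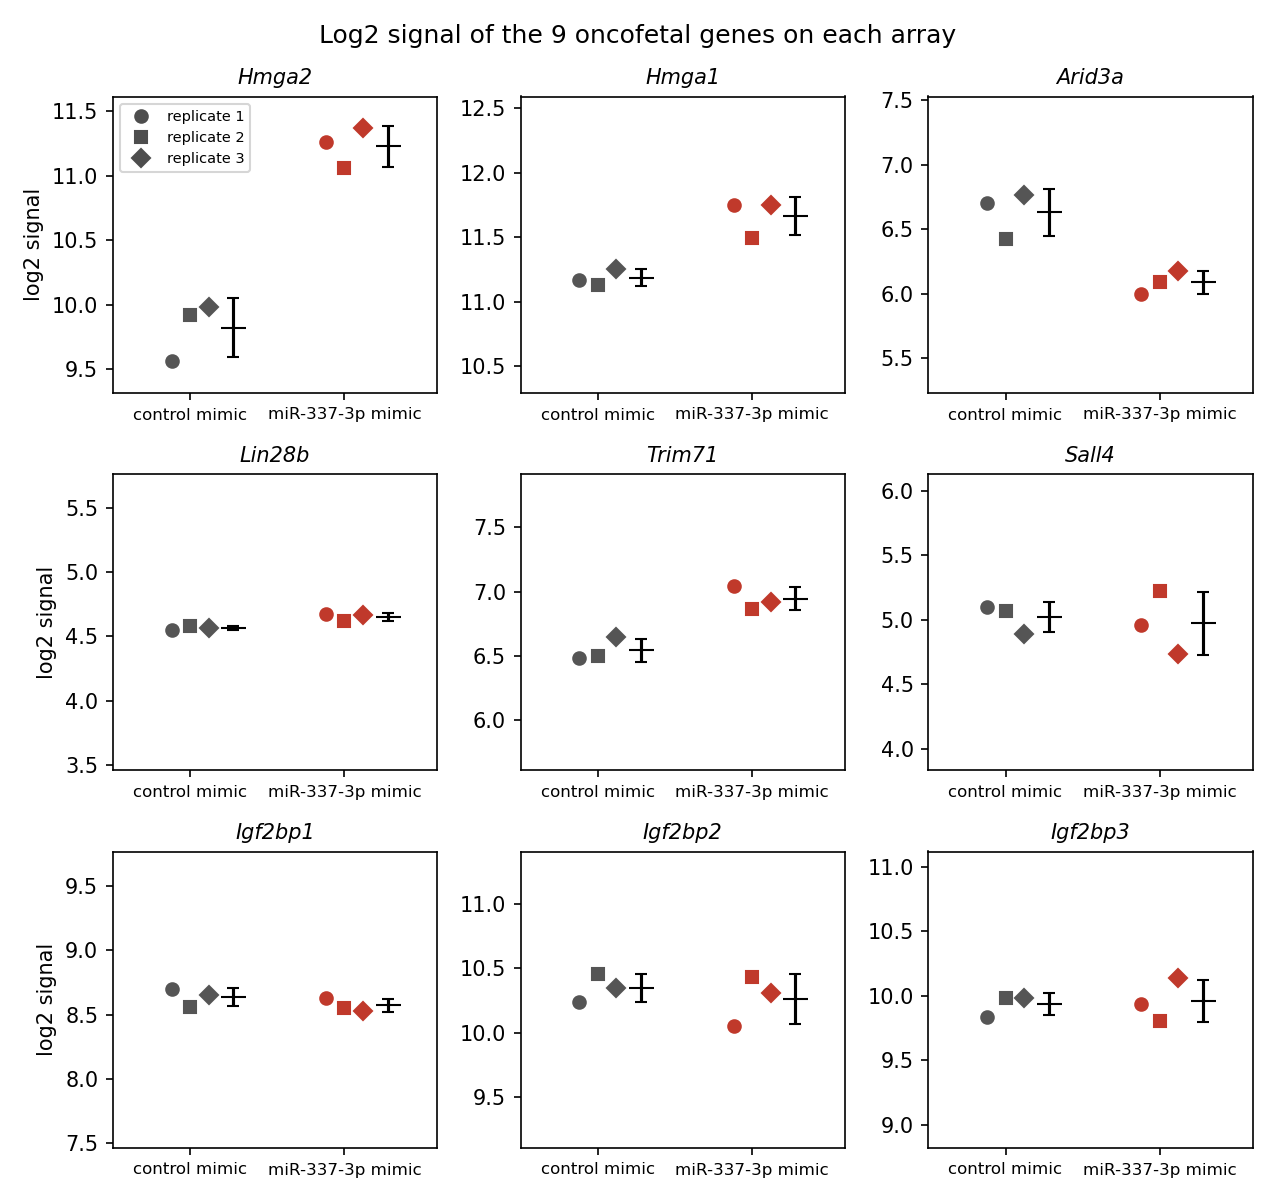
Log2 signal of each oncofetal gene on the 3 control mimic arrays (grey) and the 3 miR-337-3p mimic arrays (red), with a marker shape per replicate number and the group mean ± SD in black; each panel spans the same 2.3 log2 units. Hmga2 shows the widest gap between groups, from at most 9.98 in control to at least 11.06 in mimic samples, while the Igf2bp panels overlap.

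Hmga2, which encodes the embryonic HMGA protein and is a textbook let-7 target, read 9.56, 9.92 and 9.98 in control replicates 1 to 3 and 11.26, 11.06 and 11.37 in mimic replicates 1 to 3. Every mimic array lay more than 1 log2 unit above the brightest control array, and control replicate 1 was the lowest of its group. The log2 difference was 1.41 with an SE of 0.16 and a 95% interval from 1.05 to 1.76, or 2.65-fold (limma adjusted p = 0.00479). The rise held within each replicate number, at 1.70, 1.13 and 1.39. Only 0.873% of all genes had a larger absolute difference. Whether more cells made Hmga2 mRNA or each cell held more of it cannot be told apart in bulk RNA. With any 1 array left out the call stayed, at adjusted p from 0.0110 to 0.0213, but without both arrays of replicate 1 the difference was 1.26 and limma's adjusted p was 0.0611. The authors' deposited table gives Hmga2 a ratio of 2.45, a p of 0.000912 and an FDR p of 0.128, so by their FDR it does not pass 0.05. A separate row annotated to the pseudogene Hmga2-ps1 read 6.20, 7.51 and 5.95 in control and 6.90, 7.64 and 7.11 in mimic samples, and its groups overlapped. Whether the Hmga2 row also reads the pseudogene's RNA was not tested.

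Hmga1, the paralog of Hmga2 and also expressed in many dividing cells, read 11.17, 11.13 and 11.26 in control and 11.75, 11.50 and 11.75 in mimic samples on its brighter row. The groups did not overlap, and the gap was smaller than that of Hmga2. The log2 difference was 0.48 (SE 0.13, 95% interval 0.19 to 0.77), or 1.39-fold, with an adjusted p of 0.0915 in limma and 0.0402 with the replicate block. With limma's trend and robust options the adjusted p was 0.0276. It passed in 0 of 6 fits with 1 array left out (limma adjusted p from 0.106 to 0.259). The limma adjusted p was 0.134 with the mean of its 2 rows and 0.1515 with each array centred on its median. The dimmer row read 7.20, 7.58 and 7.56 in control and 7.61, 7.84 and 8.12 in mimic samples, differing in log2 signal by 0.41 (SE 0.17, limma adjusted p = 0.317 with every row fitted). The rows thus point the same way, and neither is annotated to Hmga1 alone, so how much of each signal is Hmga1 is uncertain. Per array, the log2 ratio of Hmga2 to Hmga1 was -1.36 ± 0.21 in control and -0.44 ± 0.05 in mimic samples (SD, n = 3), a change of 0.93. That change had the smallest two-sided p that 3 against 3 arrays allow in an exact permutation test, 0.10, or 0.30 adjusted over the 6 paralog pairs tested, so this test could not place it below 0.05.

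**Figure D2:**
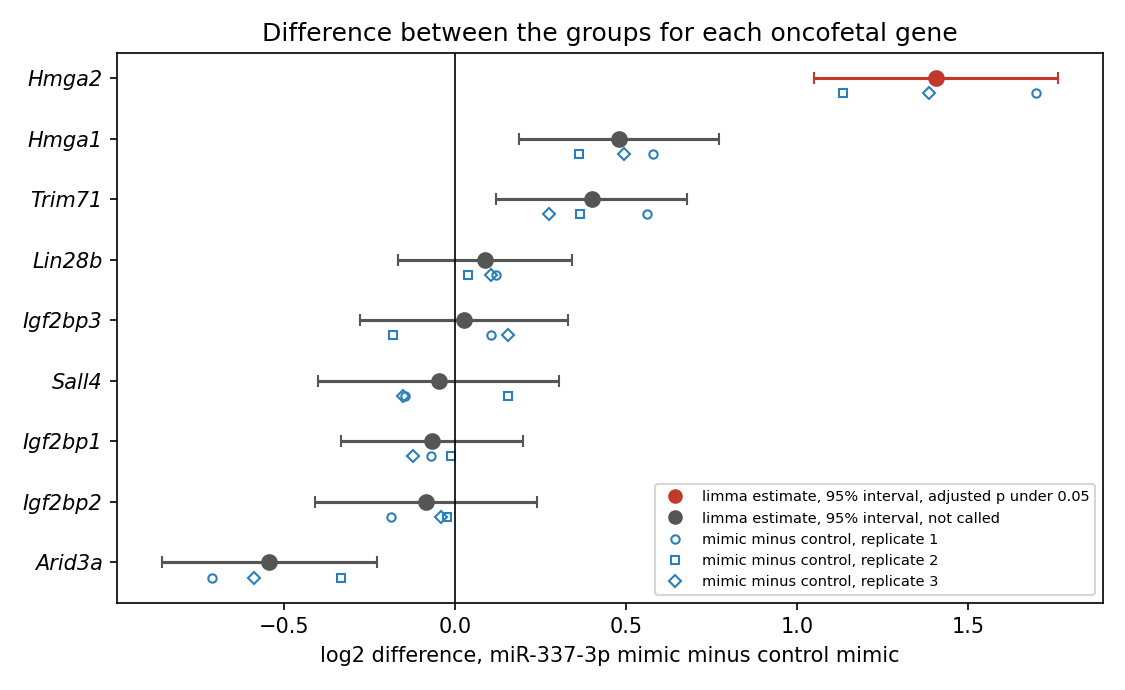
Log2 difference between miR-337-3p mimic and control mimic samples for each oncofetal gene: limma estimates with 95% intervals (red where adjusted p is under 0.05), and below each the difference within each replicate number as open symbols. Hmga2 stands at 1.41, Hmga1, Trim71 and Arid3a have intervals that leave out 0 but were not called, and the other 5 intervals include 0.

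Arid3a was the 1 oncofetal gene whose mimic arrays all lay below the control arrays. It read 6.71, 6.42 and 6.76 in control and 6.00, 6.09 and 6.18 in mimic samples. The log2 difference was -0.54 (SE 0.14, 95% interval -0.86 to -0.23), with an adjusted p of 0.0772 in limma, 0.0353 with the replicate block and 0.0387 after quantile normalization of the arrays. It passed in 0 of 6 fits with 1 array left out (limma adjusted p from 0.0704 to 0.247). The limma adjusted p was 0.125 with each array centred on its median, 0.1105 with trend and robust options and 0.393 without both replicate 1 arrays. Within replicate numbers the difference was -0.71, -0.33 and -0.59. Its close paralog Arid3b, another let-7 target, differed by 0.00 (SE 0.14, limma adjusted p = 0.999), with a 95% interval from -0.32 to 0.32. The log2 ratio of Arid3a to Arid3b was 0.84 ± 0.14 in control and 0.30 ± 0.11 in mimic samples (SD, n = 3), with an exact permutation p of 0.10, again the smallest possible, and 0.30 after adjustment. Of the 14 other measured genes with an ARID domain, 0 were called by limma, alone or with the block, against 3.57% and 8.58% of all genes. An unadjusted limma p under 0.05 was found for 1, against 15.1% of all genes. It was the chromatin remodelling subunit gene Arid1b at 0.35 (SE 0.14, limma adjusted p = 0.296). Arid1a, another such subunit, was at 0.30, Arid2 at 0.23 and the histone demethylase gene Kdm5c at -0.25.

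Lin28b, the let-7 inhibitor, read 4.55, 4.58 and 4.56 in control and 4.67, 4.62 and 4.67 in mimic samples. These values lie under the dim reference of 4.83, so a signal above background is not shown. The mimic arrays lay above the control arrays, but the log2 difference was 0.09 (SE 0.11, 95% interval -0.17 to 0.34, limma adjusted p = 0.845). Within-group SDs of 0.015 and 0.031 were the narrowest of the 9 genes in their groups. The authors' deposited table gives this row a p of 0.0116 and an FDR p of 0.238 at a ratio of 1.08. Their p uses only the gene's own SD, which limma draws towards that of other genes. Lin28a, the paralog used in pluripotent cells, read 5.40 in control and 5.34 in mimic samples, and differed in log2 signal by -0.05 (SE 0.13, limma adjusted p = 0.932). The log2 ratio of Lin28b to Lin28a changed by 0.14, with an exact permutation p of 0.20 and 0.40 after adjustment over the 6 pairs, and its groups overlapped.

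Trim71, the mammalian counterpart of the nematode let-7 target lin-41, read 6.48, 6.50 and 6.65 in control and 7.04, 6.87 and 6.92 in mimic samples. The groups did not overlap. The log2 difference was 0.40 (SE 0.12, 95% interval 0.12 to 0.68), or 1.32-fold, with an adjusted p of 0.138 in limma and 0.0803 with the replicate block, so it was not called in either fit. Within replicate numbers Trim71 was higher by 0.56, 0.37 and 0.27. Among 12 measured genes of its family, its partners and its targets, 2 rose and 0 fell, against 1.89% and 1.68% of all genes. They were the Argonaute gene Ago1, at 0.82 (SE 0.13, adjusted p = 0.0171 in limma), and the family member Trim3, a ubiquitin ligase gene, at 0.70 (SE 0.15, adjusted p = 0.0398). Ago1 passed only when the array left out was control replicate 2 or 3 or mimic replicate 1 (limma adjusted p otherwise up to 0.0804). Trim3 lost its call whichever array was left out (0.0524 to 0.155), and also when each array was centred on its median (limma adjusted p = 0.0779). Trim2, of the same family, was at -0.45 (adjusted p = 0.158 in limma), Egr1, an immediate early factor gene, at 0.34, and Cdkn1a, the cell cycle inhibitor whose mRNA TRIM71 silences, at -0.29 (adjusted p = 0.451).

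Sall4 read 5.10, 5.07 and 4.89 in control and 4.96, 5.23 and 4.74 in mimic samples, close to the dim reference. The groups overlapped, and the log2 difference was -0.05 (SE 0.15, 95% interval -0.40 to 0.30, limma adjusted p = 0.954). Its within-group SD of 0.25 in mimic samples was the highest of the 9 genes. NuRD is the nucleosome remodelling and deacetylase complex that SALL4 recruits. Of 18 measured SALL paralogs and NuRD subunits, 1 rose and 0 fell, against 1.89% and 1.68% of all genes. This was Chd3, which encodes a remodelling ATPase of NuRD, with 8.65, 8.52 and 8.33 in control and 9.52, 9.50 and 9.53 in mimic samples. Its log2 difference was 1.02 (SE 0.13, limma adjusted p = 0.00675), and it passed with any 1 array left out. Without both replicate 1 arrays Chd3 did not pass (limma adjusted p = 0.0637). The other ATPase gene Chd4 was at 0.39 (adjusted p = 0.143), the methyl-CpG-binding subunit gene Mbd3 at 0.53 (adjusted p = 0.0696, 0.0306 with the block) and the histone chaperone gene Rbbp4 at 0.44 (adjusted p = 0.132). The paralog Sall1 was at 0.22 (adjusted p = 0.493), Sall2 at 0.17 and Sall3 at -0.15. The list's median log2 difference was 0.21, with 14 above 0 and 4 below, and the same counts after either rescaling of the arrays. Over all genes the median was 0.02 and 53.9% lay above 0. Of the 18 listed genes 17 were brighter than the array median, and without the dimmest genes the median over the 15463 genes left was 0.04.

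The Igf2bp genes gave clear signals that overlapped between the groups. Igf2bp1 read 8.70, 8.56 and 8.65 in control and 8.63, 8.55 and 8.53 in mimic samples, differing in log2 signal by -0.07 (SE 0.12, limma adjusted p = 0.895). Igf2bp2 read 10.24, 10.46 and 10.35 in control and 10.05, 10.43 and 10.30 in mimic samples, differing in log2 signal by -0.08 (SE 0.14, adjusted p = 0.892). Igf2bp3 read 9.83, 9.98 and 9.98 in control and 9.94, 9.80 and 10.13 in mimic samples, differing in log2 signal by 0.03 (SE 0.13, adjusted p = 0.972). In each case the ranges of the groups overlapped. The 95% intervals ran from -0.33 to 0.20 for Igf2bp1, from -0.41 to 0.24 for Igf2bp2 and from -0.28 to 0.33 for Igf2bp3, so a log2 change below -0.41 or above 0.33 lies outside all of them. Log2 ratios between pairs of the 3 genes changed by 0.02, 0.11 and -0.09, with exact permutation p-values of 0.90, 0.50 and 0.60 (adjusted 0.90, 0.72 and 0.72). The Igf2bp1 row is also annotated to the microRNA gene Mir3063.

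Transcripts known to be bound by IGF2BP proteins were called in both directions. Of 19 measured, 3 rose and 2 fell in limma, against 1.89% and 1.68% of all genes. The list's median log2 difference was 0.22, with 14 above 0 and 5 below, and the same counts after either rescaling of the arrays. Over all genes the median was 0.02 and 53.9% lay above 0. Of the 19 listed genes 15 were brighter than the array median. The hyaluronan receptor Cd44 rose by 0.89 (SE 0.15, adjusted p = 0.0194), the actin-bundling protein gene Fscn1 rose by 1.02 (SE 0.19, adjusted p = 0.0291) and the drug efflux pump gene Abcb1b rose by 1.08 (SE 0.18, adjusted p = 0.0180), while its paralog Abcb1a fell by 1.70 (SE 0.23, adjusted p = 0.00857) and the noncoding RNA H19 fell by 1.49 (SE 0.30, adjusted p = 0.0349). Abcb1a and Abcb1b are near-identical in parts, so a probe set may read both, and how much of each row's change belongs to which gene is uncertain. Abcb1a passed with any 1 array left out, but not without both replicate 1 arrays (limma adjusted p = 0.0551). Leaving out mimic replicate 2, mimic replicate 3 or control replicate 1 ended the call of Cd44 (limma adjusted p up to 0.0804). Abcb1b (up to 0.0645) and Fscn1 (up to 0.12) passed only without control replicate 2, and H19 (up to 0.117) only without control replicate 3. Igf2, the growth factor whose mRNA named the IGF2BP family, read 4.39 in control and 4.50 in mimic samples, under the dim reference. Myc, another bound mRNA, was at 0.23 (SE 0.22, adjusted p = 0.773).

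**Figure D3:**
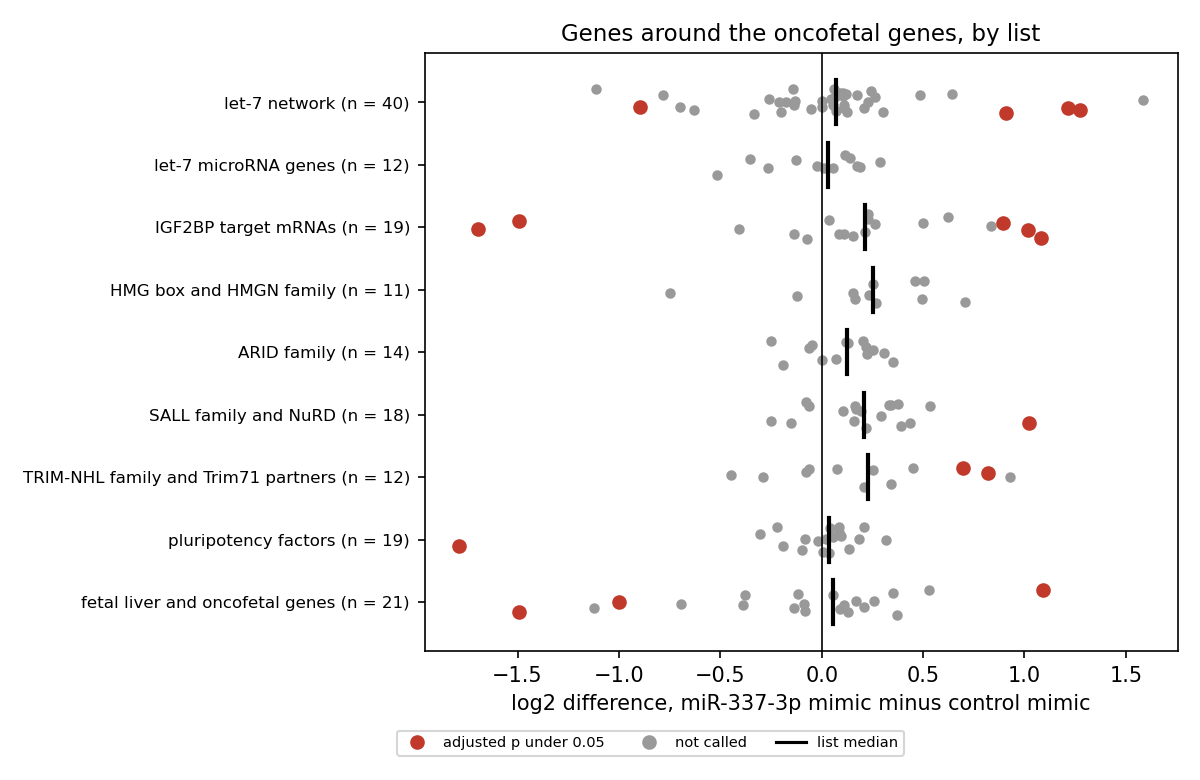
Log2 difference, mimic minus control, of each measured gene in 9 lists drawn around the oncofetal genes; red points passed an adjusted p of 0.05 in limma, grey points did not, and the black bar is the list's median. Called genes lie on both sides of 0 in the let-7, IGF2BP and fetal liver lists, and the HMG, ARID and let-7 microRNA gene lists hold none.

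Among 40 other known let-7 targets or regulators of let-7, 3 rose and 1 fell, against 1.89% and 1.68% of all genes. Their median log2 difference was 0.07. The kinase gene Map4k4 rose by 0.91 (SE 0.14, limma adjusted p = 0.0122), cyclin D1 (Ccnd1) rose by 1.27 (SE 0.19, adjusted p = 0.0124) and the TGF-beta receptor gene Tgfbr1 rose by 1.21 (SE 0.21, adjusted p = 0.0219), while Irs2, an adaptor of the insulin receptor, fell by 0.90 (SE 0.19, adjusted p = 0.0449). Map4k4 and Ccnd1 were lost without control replicate 1 (0.0617 and 0.0614 in limma), Tgfbr1 (up to 0.0895) passed only without control replicate 3, and Irs2 (up to 0.128) passed only without mimic replicate 2. Centring each array on its median also ended the call of Irs2 (limma adjusted p = 0.0715). With the block 5 of the 40 rose and 5 fell, against 8.58% of all genes called in either direction. Mycn, a MYC family let-7 target, was at 0.06 (limma adjusted p = 0.946).

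The enzymes that act on let-7 precursors with LIN28 were also measured. Zcchc11 (TUT4), the uridylyl transferase that LIN28 recruits, is named here after its value was seen. It read 7.72, 8.31 and 8.12 in control and 6.23, 7.25 and 7.33 in mimic samples, and the groups did not overlap. Its log2 difference was -1.11 (SE 0.29), with an adjusted p of 0.0879 in limma and 0.00666 with the replicate block. The related transferase gene Zcchc6 (TUT7) was at 0.12 (SE 0.12, adjusted p = 0.793) and Dis3l2, the nuclease that degrades uridylated precursors, at 0.04 (SE 0.14, adjusted p = 0.955).

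Rows annotated to let-7 microRNA genes gave 0 calls among 12 in limma, alone or with the block, against 3.57% and 8.58% of all genes. An unadjusted limma p under 0.05 was found for 2, against 15.1% of all genes. Of the 12, 10 lay under the dim reference, and the array's rows are annotated to the genes and do not measure mature let-7. Mirlet7a-1, whose mature sequence is given above, lay above it and read 7.52, 6.63 and 6.97 in control and 6.73, 6.35 and 6.50 in mimic samples. The groups overlapped, and differed in log2 signal by -0.52 (SE 0.22, limma adjusted p = 0.321). Mirlet7g read 3.61 in control and 3.26 in mimic samples, differing in log2 signal by -0.35 (SE 0.12, adjusted p = 0.197), and Mir98 3.37 and 3.11 (adjusted p = 0.604), all under the dim reference. Mirlet7c-1 read 3.14 and 3.33.

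Of 11 other high mobility group genes measured, 0 rose or fell in limma, against 3.57% of all genes called. Of the 11, 4 had an unadjusted limma p under 0.05, against 15.1% of all genes, and all 4 were higher in the mimic samples. Hmgn1, a nucleosome-binding protein gene, was at 0.50 (SE 0.12, adjusted p = 0.0615, 0.0302 with the block), and Hmgb3 at 0.71 (SE 0.18, adjusted p = 0.0824, 0.0449 with the block). Hmgb1, an abundant DNA-bending protein gene, was at 0.46 (adjusted p = 0.10) and Hmg20b at 0.50 (adjusted p = 0.154). The list's median log2 difference was 0.25, with 9 above 0 and 2 below under each scaling of the arrays, against the same 0.02 and 53.9% over all genes.

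Factors of pluripotent stem cells, where Lin28, Sall4 and Trim71 also act, were mostly dim. Of 19 measured, 13 lay under the dim reference, Nanog and Sox2 among them. In limma 0 rose and 1 fell, against 1.89% and 1.68% of all genes. The factor that fell was Klf4, which epithelia also use, with 9.87, 9.96 and 9.89 in control and 7.30, 8.61 and 8.44 in mimic samples. Its log2 difference was -1.79 (SE 0.30, limma adjusted p = 0.0191), and the call was lost without control replicate 1, 2 or 3 (adjusted p up to 0.0789). Without both replicate 1 arrays Klf4 passed (limma adjusted p = 0.0475). Klf2 was at 0.32, Dppa4 at -0.22 and Nr0b1 at 0.21, with limma adjusted p-values from 0.423 to 0.530.

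Other fetal liver and oncofetal genes split, with 1 of 21 rising and 2 falling in limma, against 1.89% and 1.68% of all genes. The transcription factor gene Sox4 rose by 1.09 (SE 0.20, adjusted p = 0.0249), Epcam, which encodes an epithelial adhesion molecule, fell by 1.00 (SE 0.13, limma adjusted p = 0.00682), and H19 fell as given above. Epcam passed with any 1 array left out, but not without both replicate 1 arrays (limma adjusted p = 0.0884). With 1 array left out, Sox4 (up to 0.0967) passed only without control replicate 3. Gpc3, a surface proteoglycan of fetal liver and liver cancer, read 3.95, 4.30 and 3.73 in control and 4.10, 3.68 and 3.97 in mimic samples, under the dim reference on every array. Afp was at -0.39 (SE 0.23, adjusted p = 0.524) and the imprinted gene Peg3 at 0.53 (SE 0.15, adjusted p = 0.101, 0.0407 with the block).

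The lists share members, so over all 9 lists 156 distinct genes were measured. Of these 10 rose and 5 fell in limma, against 1.89% and 1.68% of all genes. The lists were chosen with earlier results of these data known, so these counts are no test of the lists.

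**Figure D4:**
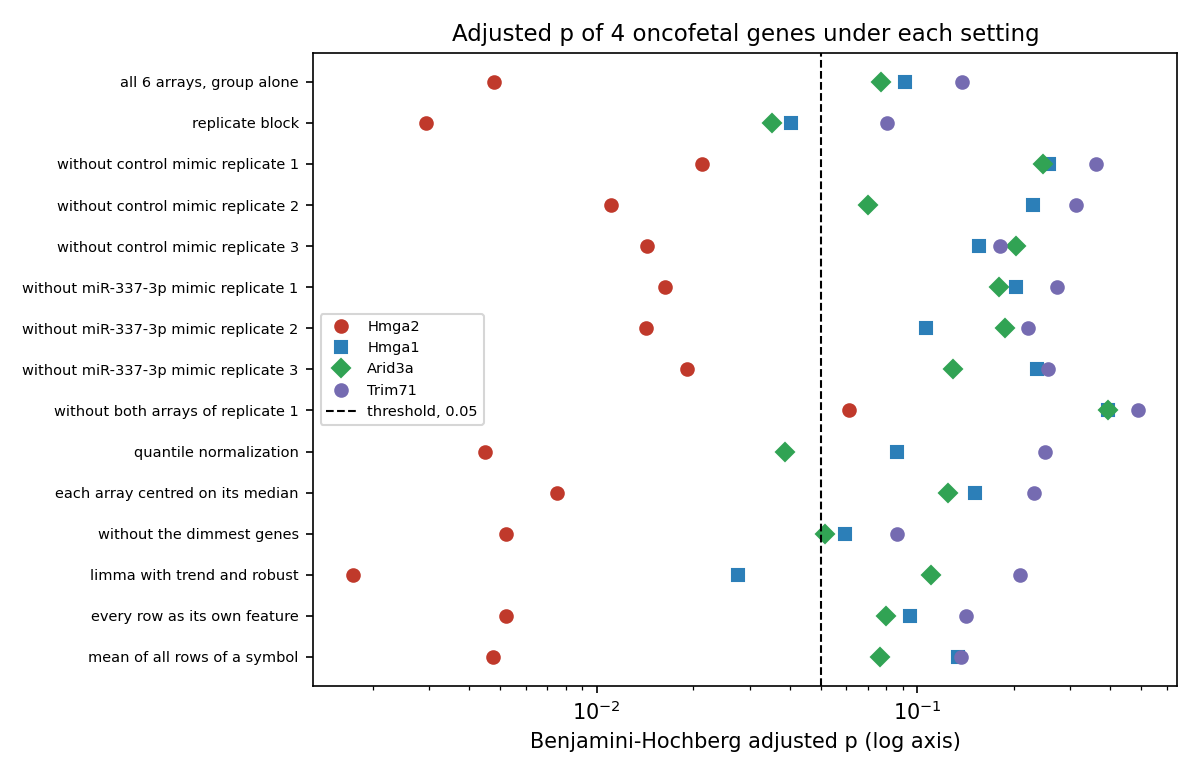
Benjamini-Hochberg adjusted p (log axis) of Hmga2, Hmga1, Arid3a and Trim71 with all 6 arrays and under each alternative fit; the dashed line is the threshold of 0.05. Hmga2 lies left of the line except without both arrays of replicate 1 (0.0611), Hmga1 and Arid3a cross it in 2 alternatives each, and Trim71 in none.

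The genes whose levels over the 6 arrays were most like those of Hmga2, among 12212 named genes brighter than the median gene, were Ldb1 (Pearson r = 0.998), Pik3ca (0.997) and Rgs19 (0.997). Ldb1, which encodes a LIM domain-binding cofactor, read 9.10, 9.34 and 9.43 in control and 10.34, 10.10 and 10.42 in mimic samples. Rgs19, a regulator of G protein signalling, was higher by 0.98 (SE 0.12, limma adjusted p = 0.00682), and Pik3ca, a catalytic subunit gene of PI3 kinase, by 0.30 (SE 0.11, limma adjusted p = 0.253). These correlations are a description over 6 arrays that share the same 2 groups.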

How the data were processed

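Log2 signals deposited by the authors, 1 per array for each of 41345 transcript clusters, came from Affymetrix arrays hybridised with biotin-labelled cRNA made from 6 ug of RNA, per the labels' protocols. The sources used here do not name the software, normalization or genome build. All values were used without further normalization. The authors' deposited comparison table gives group averages (log2), a signed fold score, a linear ratio and ANOVA and FDR p-values, per the file headers. Its symbols named 32453 rows and 30927 genes, and of several rows for a gene the brightest was used.

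Mimic minus control was tested over all genes by lmFit and eBayes of limma 3.58.1, run in R 4.3.3, with group as the sole term and Benjamini-Hochberg adjustment, and called under 0.05. Deviations from group means correlated at 0.431, 0.370 and 0.442 between arrays sharing a replicate number and from -0.292 to -0.119 between others. Because deviations sum to 0 within each group, positive values at the same number force negative values among the others. The positive values, not the labels, are why the replicate numbers were also treated as pairs. Calls, SEs and intervals come from the fit with group alone, which ignores the pairs, as do the exact permutation tests. A fit with the number as a block is given where it changes a call of a named gene. Ratios of paralogs were compared by exact permutation. Alternatives left out arrays, rescaled them, filtered dim genes, changed limma's options or the row used per gene.

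The members, 9 lists and markers were chosen with earlier results of these data known. Named genes are the members, their paralogs, per list up to 4 genes of smallest unadjusted p and all calls of a list with 5 or fewer, and 3 genes most correlated with each called member, passing over predicted genes, olfactory and vomeronasal receptors, small RNAs, clones and pseudogenes. Markers and other list genes named for their role (Cdkn1a, Myc, Mycn, Igf2, Gpc3, Afp, Nanog, Sox2, the Sall paralogs, Zcchc11, Zcchc6 and Dis3l2) were picked after their values were seen. Actb, Hmgn2, Mir202 and Hba-a1 are among the listed genes that matched no named row. Some listed genes are not reported here.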

Additional observations from a re-analysis of the deposited data

How the results depend on the processing

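A replicate block raised the calls from 1103 to 2654 genes, from 1 to 3 of the 9 oncofetal genes and from 15 to 28 list genes, and changed no other call of an oncofetal gene. Leaving out 1 array, which also leaves fewer samples, gave 322 to 721 genes, 1 oncofetal gene and 3 to 11 list genes. When both replicate 1 arrays were left out, 77 genes, 0 oncofetal genes and 1 list gene (Klf4) passed. Quantile normalization called 2 oncofetal genes (Hmga2 and Arid3a), as did limma with trend and robust options (Hmga2 and Hmga1), and the authors' deposited FDR called 5 genes and 0 oncofetal genes. The cause was not tested. Differences near 0 changed sign. With 1 array left out, Igf2bp2 ranged from -0.17 to 0.021 (above 0 without mimic replicate 1), Igf2bp3 from -0.061 to 0.10 (below 0 without mimic replicate 3 and, at -0.02, control replicate 1) and Sall4 from -0.17 to 0.071 (above 0 without mimic replicate 3). Leaving out both replicate 1 arrays put Igf2bp3 at -0.01 and Sall4 at 0.0013. Alternatives for paralog ratios were chosen after seeing the data. The change in the ratio of Igf2bp1 to Igf2bp2 ranged from -0.12 to 0.11 with 1 array left out (-0.08 without control replicate 2), and was -0.03 when both replicate 1 arrays were dropped and -0.040 after quantile normalization. That of Igf2bp1 to Igf2bp3 ranged from -0.16 to 0.013. The median of the fetal liver list turned to -0.0078 under quantile normalization. Lin28b and Sall4 lie near the dim reference, where a fall may not be measurable.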

Other observations

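Some further let-7 network genes were not called in limma with group alone but were with the replicate block, and are named here after their values were seen. The matrix protein gene Thbs1 read 6.16, 7.01 and 5.64 in control and 8.43, 8.11 and 7.02 in mimic samples, differing in log2 signal by 1.59 (SE 0.41, limma adjusted p = 0.0862 without and 0.00636 with the block). The cyclin-dependent kinase gene Cdk6 was at -0.70 (SE 0.18, adjusted p = 0.0791, 0.0105 under the block) and the zinc finger gene Plagl2 at -0.78 (SE 0.21, adjusted p = 0.0953, 0.0119 with the block).

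Among fetal liver genes, the progenitor surface marker Prom1 read 5.82, 6.33 and 7.06 in control and 4.90, 5.24 and 5.70 in mimic samples, differing in log2 signal by -1.12 (SE 0.31, adjusted p = 0.104 in limma, 0.00389 with the block), and the imprinted growth regulator Grb10 was at -0.69 (SE 0.24, adjusted p = 0.191, 0.0154 with the block).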
